A study of Mus musculus with 4 samples.

Results

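The Bex genes (brain expressed X-linked) were followed in mouse extensively self-renewing erythroblasts, which are immature precursors of red cells grown in culture. The rule took every row of the authors' deposited table named Bex1, Bex2, Bex4 or Bex6, which gave 4 genes of 23234. The family was chosen by measured values: the FPKM of Bex4 and Bex6 in the knockdown against the proliferating control had been seen among the lowest ratios. Values of that comparison, and of any other that uses the knockdown library, are therefore a description and support nothing. The labels describe 4 samples in 4 groups of 1 sample each. One group carried a non-targeting short hairpin RNA and proliferated (proliferating control), and another carried a hairpin against Setd8 and proliferated (knockdown). The third carried the non-targeting hairpin and had spent 6 h in maturation medium (maturing control). The group with the Setd8 hairpin in maturation medium was not analysed here. All groups share the erythroblast culture and a hairpin of some kind. The knockdown rests on 1 hairpin, and the number of cultures behind a sample is not stated. Setd8 is the histone methyltransferase that monomethylates H4 at lysine 20.

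Bex proteins are small, flexible and mostly unstructured, and are thought to act as adaptors for other proteins. The family lies with its relatives, the Tceal genes, in a cluster on the X chromosome, and its members are best known from brain. Bex1 and Bex3, the latter named Ngfrap1 in the table, bind the p75 neurotrophin receptor. Human BEX2 has been found in a complex with LMO2, a bridging protein that also holds Tal1 and Gata factors together in red cell precursors. Human BEX4 binds alpha-tubulin and the deacetylase SIRT2. No role is given here for Bex6, which lies on chromosome 16.

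The sequences upstream of the genes fell into pairs. They are shown because Bex1 and Bex4, which form the first pair, were both low in the knockdown. Bex2 and Bex3, which form the other, were not called. The window of Tceal8, an X-linked relative that was also called lower, is not shown. Any part of these sequences in the levels was not tested. RefSeq promoter windows (GRCm38.p6) matched all 4 members and Bex3, and the 250 bases before the annotated start are printed 5′ to 3′ on the strand of the gene. The windows are chrX:136215514-136215763 (minus strand) for Bex1, chrX:136138746-136138995 (plus strand) for Bex4, chrX:136068237-136068486 (minus strand) for Bex2, chrX:136270003-136270252 (plus strand) for Bex3 and chr16:32179550-32179799 (plus strand) for Bex6. Capitals mark the longest run that Bex1 and Bex4 share letter for letter, and likewise the longest run that Bex2 and Bex3 share. Bex6 has no capitals because its longest run shared with any of the other windows was 9 bases.
Bex1: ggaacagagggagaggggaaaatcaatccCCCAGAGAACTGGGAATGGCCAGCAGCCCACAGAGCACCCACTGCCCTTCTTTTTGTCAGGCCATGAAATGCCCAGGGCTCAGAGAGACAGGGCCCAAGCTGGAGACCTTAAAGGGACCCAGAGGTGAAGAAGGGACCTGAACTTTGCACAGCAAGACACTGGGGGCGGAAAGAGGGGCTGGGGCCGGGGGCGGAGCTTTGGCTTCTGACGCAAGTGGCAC
Bex4: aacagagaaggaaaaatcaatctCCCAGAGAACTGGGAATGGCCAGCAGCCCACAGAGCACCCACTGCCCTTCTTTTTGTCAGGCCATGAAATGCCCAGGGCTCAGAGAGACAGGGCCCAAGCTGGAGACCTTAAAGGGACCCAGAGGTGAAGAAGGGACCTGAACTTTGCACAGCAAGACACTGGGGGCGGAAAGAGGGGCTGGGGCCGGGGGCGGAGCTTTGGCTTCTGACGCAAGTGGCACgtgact
Bex2: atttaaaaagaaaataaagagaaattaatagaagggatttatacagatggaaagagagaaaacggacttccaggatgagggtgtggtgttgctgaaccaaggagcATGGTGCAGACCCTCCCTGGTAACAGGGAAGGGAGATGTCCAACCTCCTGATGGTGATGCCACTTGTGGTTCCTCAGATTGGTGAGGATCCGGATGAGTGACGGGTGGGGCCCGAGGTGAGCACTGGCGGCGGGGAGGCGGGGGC
Bex3: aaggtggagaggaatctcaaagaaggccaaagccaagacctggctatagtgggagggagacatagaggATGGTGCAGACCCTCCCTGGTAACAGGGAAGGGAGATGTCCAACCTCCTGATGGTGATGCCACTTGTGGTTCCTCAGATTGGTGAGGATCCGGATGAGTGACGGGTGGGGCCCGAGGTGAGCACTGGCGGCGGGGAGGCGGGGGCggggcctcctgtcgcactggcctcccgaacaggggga
Bex6: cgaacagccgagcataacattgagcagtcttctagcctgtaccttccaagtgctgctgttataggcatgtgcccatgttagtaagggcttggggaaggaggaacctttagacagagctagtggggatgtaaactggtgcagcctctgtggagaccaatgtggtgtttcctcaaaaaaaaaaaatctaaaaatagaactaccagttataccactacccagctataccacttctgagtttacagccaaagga

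Bex1 and Bex4, which face opposite ways on the X chromosome, shared 221 bases without a difference. In Bex1 the run covers positions -221 to -1, counted back from the annotated start, and in Bex4 positions -227 to -7. Over the aligned part of these windows 237 bases were identical and 3 were not. Bex2 and Bex3, which also face opposite ways, shared 145 bases without a difference, at positions -145 to -1 of Bex2 and -182 to -38 of Bex3. Bex6, which was low in the knockdown like Bex1 and Bex4, had no such partner. Between the pairs the longest shared run was 9 bases. The runs of 221 and 145 bases reach the last base of the Bex1 and Bex2 windows, so they may extend further. The windows held 4 CG pairs in Bex1, 5 in Bex4, 7 in Bex2, 9 in Bex3 and 2 in Bex6, against a median of 6 over 32851 windows of the same length.

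Short motifs were searched on both strands of the same windows. The GATA motif was searched as AGATAA and as TGATAA, and with a final G in place of the final A as AGATAG and as TGATAG. It was in none of the 5 windows and in 26.5% of all windows. The GC box GGGCGG, a known binding site of Sp1 family factors, was found at -58 and -33 of Bex1 and at -64 and -39 of Bex4, which are the same letters of the shared run. Bex3 held 1 copy, and Bex2 and Bex6 held 0, while 32.7% of all windows held it. The copy of Bex3, at -41, begins in the run shared with Bex2 and ends past it. The window of Bex2 stops where that run ends, so the same site in Bex2 was not searched. The E-box CACGTG was found once, in Bex4 at -9, and in 6.02% of all windows. It begins in the run shared with Bex1 and ends past it. The window of Bex1 stops where that run ends, so the same site in Bex1 was not searched. The TATA box TATAAA was found once, in Bex2 at -213 on the strand opposite to the gene, and in 12.4% of all windows. These are matches of letters and not measured binding sites.

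The transcripts of the family also overlap in letters, which bears on how fragments were divided between copies. In the GENCODE M21 transcripts, 60.3% of the 808 different runs of 30 bases in Bex4 also occurred in another gene, 223 of them in Bex1. Bex4 also shared runs with Gm12245 (230) and Gm4322 (218). For Bex1, 30.7% of 1235 runs were shared, 223 with Bex4 and 153 with Bex2. For Bex2, 36.4% of 874 runs were shared, 165 with Bex3 and 153 with Bex1. Bex6 stood apart, since 0 of its 988 runs occurred in any other gene. How the authors' counting split shared fragments is not given in the sources used here, so the separate levels of Bex1, Bex2 and Bex4 are uncertain, and the part of shared fragments in their values was not tested.

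Levels were read as FPKM, a count of fragments corrected for transcript length and for the size of the library. Where 3 values follow each other, they are those of the proliferating control, the knockdown and the maturing control, in that order. The target Setd8 stood at 25.1, 9.28 and 25.9 FPKM, lowest in the library labelled as its knockdown. All 8 erythroid markers that matched a row reached 1 FPKM in at least 1 library. Slc4a1 did so only in the maturing control, at 0.792, 0.268 and 2.34 FPKM. Klf1 stood at 60.1, 34.1 and 84.9 FPKM, and Rhag at 77.9, 119.3 and 56.2 FPKM. Rhag and Gata1 were higher in the knockdown than in the proliferating control, and the other erythroid markers were lower. Relative to the proliferating control, depth was 1.44 times as great in the knockdown and 1.55 times as great in the maturing control, read from the steps between very low values. The absolute depth is unknown. No difference has a replicate check, since each group had 1 library.

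Bex4 and Bex6 were abundant, Bex1 was intermediate and Bex2 was low. Bex4 lies on chromosome X from 132673584 to 132674976 in mm9. It stood at 180.0, 16.1 and 130.6 FPKM. Bex6 (chromosome 16, 32179886 to 32187030) stood at 102.1, 9.45 and 74.5 FPKM. Both were high in the 2 control libraries and low in the knockdown library. Bex1 (chromosome X, 132748511 to 132750052) stood at 19.2, 1.95 and 15.7 FPKM, with the same order of libraries. Bex2 (chromosome X, 132601104 to 132602775) was the exception, at 1.98, 1.81 and 2.22 FPKM. Its 3 values lay close together, and the maturing control was the highest.

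The order of levels, which FPKM allows because it is per length, was Bex4, Bex6, Bex1, Bex2 in each library. Bex4 ranked 143rd of all genes in the proliferating control, where 8923 genes reached 1 FPKM, and 188th in the maturing control. In the knockdown it ranked 1706th, where 9158 genes reached 1 FPKM. The ratio of Bex4 to Bex6 was 1.76 in the proliferating control, 1.70 in the knockdown and 1.75 in the maturing control. The ratio of Bex4 to Bex1 was 9.36, 8.27 and 8.34. These 3 genes thus held nearly fixed proportions while their levels in the knockdown were near 10% of those in the proliferating control. The ratio of Bex1 to Bex2 was 9.69 in the proliferating control, 7.06 in the maturing control and 1.08 in the knockdown, where the order of this pair rests on 1.95 against 1.81 FPKM. There is no spread between samples against which to set any of these ratios. Bex1 shares transcript runs with Bex4 and with Bex2, so the ratios that include Bex1 are uncertain. The part of shared fragments in these ratios was not tested. Bex3, which the rule did not take, stood at 55.0, 47.7 and 54.9 FPKM under the name Ngfrap1 and is left out of the sum. Summed over the 4 genes of the rule, the levels were 303.3, 29.3 and 223 FPKM. Bex2 supplied 0.654% of that sum in the proliferating control and 6.17% in the knockdown.

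**Figure D1:**
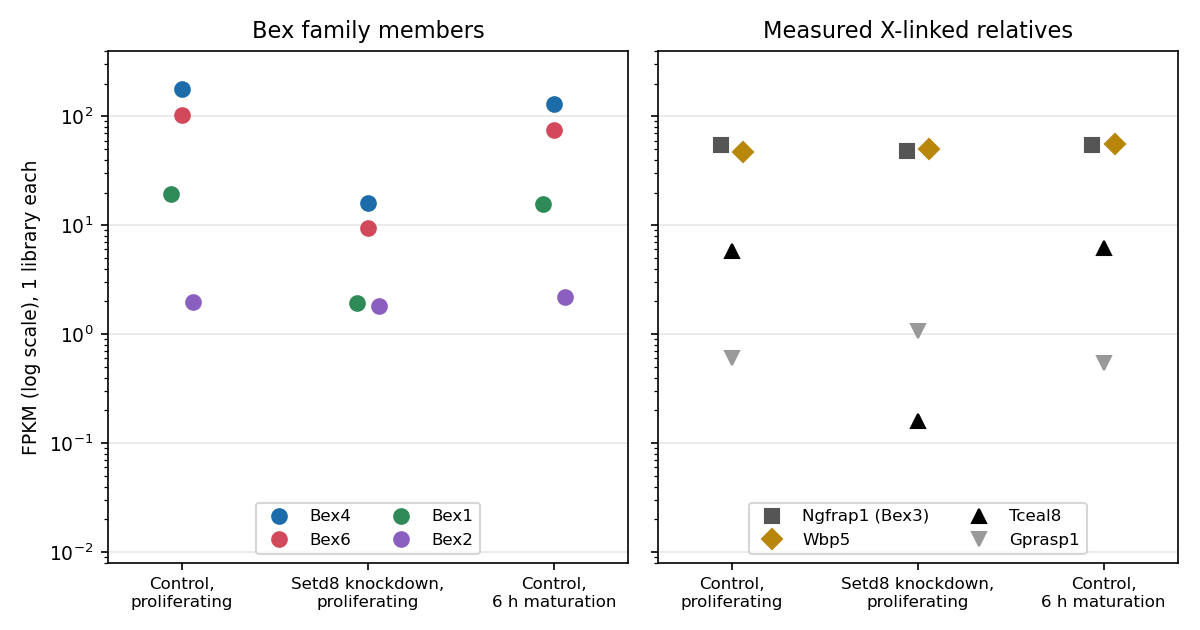
Levels in FPKM (log axis) of the 4 Bex members (left) and of the 4 X-linked relatives that reached 1 FPKM (right) in the 3 libraries, 1 point per library, with points shifted sideways where they would overlap. Bex4, Bex6 and Bex1 are lowest in the knockdown library while Bex2, Ngfrap1 and Wbp5 lie close to level, and Tceal8 is lowest in the knockdown at 0.159 FPKM.

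The first comparison set the proliferating knockdown against the proliferating control. Bex4 in the knockdown stood at 8.94% of its control level, Bex6 at 9.26%, Bex1 at 10.1% and Bex2 at 91.1%. The authors' deposited table gave log2 ratios of -3.48 for Bex4 (SE 0.45), -3.43 for Bex6 (SE 0.46) and -3.30 for Bex1 (SE 0.51), the errors being those implied by its own test statistic. The authors' deposited table called all 3 lower, with adjusted p (q) values of 1.57e-12, 1.2e-11 and 7.15e-09. Bex2 had a log2 ratio of -0.13 (SE 0.54) and a q of 0.999981 in the authors' deposited table, and was not called. Thus 3 of 4 members were called lower, where 3.24% of the 11665 tested genes were, 5.81% were called higher and 9.05% in either direction. The same 3 members lay at a log2 ratio of FPKM + 1 of -1 or below, where 2.6% of 9611 measured genes did. The members were chosen for this decrease, so nothing is read from these shares. The 3 deposited ratios differed from one another by less than the SE of any of them. In these bulk samples, fewer cells that express a gene and less of its RNA per cell cannot be told apart.

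Among the 507 genes at 50 FPKM or more in the proliferating control, Bex4 and Bex6 had the second and the third lowest log2 ratio of FPKM + 1, at -3.40 and -3.30. Only 3 of these 507 genes reached a ratio of -3 or below. Bex1, at -2.78, ranked 17th from the lowest among the 2810 genes at 10 FPKM or more in that control. The added 1 FPKM understates the change of low genes, which is why the value for Bex1 is smaller here than the deposited ratio.

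The second comparison set the maturing control against the proliferating control, which asks what 6 h in maturation medium changed. Bex4 stood at 72.5% of its proliferating level, Bex6 at 73%, Bex1 at 81.4% and Bex2 at 111.7%. The log2 ratios in the authors' deposited table were -0.46 for Bex4 (SE 0.39), -0.45 for Bex6 (SE 0.40), -0.30 for Bex1 (SE 0.49) and 0.16 for Bex2 (SE 0.54). None of the 4 was called, where 1.17% of the 11298 tested genes were called lower, 0.584% higher and 1.75% in either direction. None lay at a log2 ratio of FPKM + 1 of -1 or below, where 1.14% of measured genes did. The lowest unadjusted p of the 4 in the authors' deposited table was 0.236, that of Bex4, with a q of 0.942. Bex4, Bex6 and Bex1 had lower values and Bex2 a higher value after 6 h, with ratios close to or below their SE. This comparison shares the proliferating control library with the first.

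The deposited table also sets the proliferating knockdown against the maturing control, a pair that differs in both hairpin and medium. In the knockdown Bex4 stood at 12.3% of the maturing level, Bex6 at 12.7%, Bex1 at 12.4% and Bex2 at 81.6%. The log2 ratios in the authors' deposited table were -3.02, -2.98 and -3.01 for Bex4, Bex6 and Bex1, with q values of 2.62e-09, 1.16e-08 and 3.71e-07. The authors' deposited table called all 3 lower, where 4.38% of the 9241 tested genes were, 7.22% were called higher and 11.6% in either direction. It did not call Bex2, at -0.29 (SE 0.54). The 3 members also lay at a log2 ratio of FPKM + 1 of -1 or below, where 3.51% of measured genes did. The family was chosen for low values in this same knockdown library, so nothing is read from these shares either. The pair shares the knockdown library with the first comparison and the maturing library with the second. Both control libraries therefore held Bex4, Bex6 and Bex1 at several times the knockdown level.

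**Figure D2:**
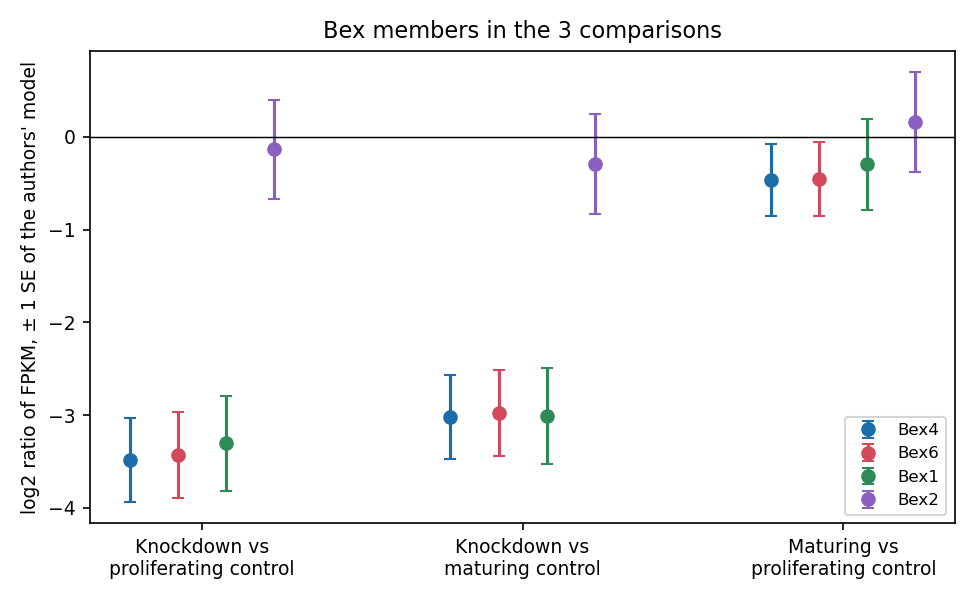
Deposited log2 ratios of FPKM (vertical axis) of the 4 Bex members in the 3 pairwise comparisons (horizontal axis), with bars of 1 SE of the authors' model, which is not a spread between replicates. Bex4, Bex6 and Bex1 lie between -3.48 and -2.98 in both comparisons with the knockdown and between -0.46 and -0.30 for maturation, and Bex2 lies within 1 SE of 0 in all 3.

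The X-linked relatives showed where in the cluster the lower values lay. The list held Bex3, the Tceal genes with Wbp5 (also named Tceal9), and the Armcx and Gprasp genes with Bhlhb9, 17 entries that all matched a row. Of these, 4 reached 1 FPKM in a library, and 5 were listed at 0 in all 3 libraries. In the knockdown 1 of the 4 was lower and 0 were higher by the calls of the authors' deposited table, where 3.24% of tested genes were called lower and 5.81% higher. Their median log2 ratio of FPKM + 1 was -0.05, as it was over all 9611 measured genes. The 1 called gene was Tceal8, a relative whose name comes from a transcription elongation factor. Tceal8 stood at 5.81, 0.159 and 6.23 FPKM. Its level in the knockdown lay far below that in either control. Its log2 ratio in the authors' deposited table was -5.19 (SE 0.54) with a q listed as 0. Ngfrap1, the p75 receptor binding protein, stood at 55.0, 47.7 and 54.9 FPKM. Wbp5 stood at 46.9, 50.2 and 55.2 FPKM. Neither was called in the authors' deposited table, with log2 ratios of -0.21 (SE 0.42) and 0.10 (SE 0.42). Gprasp1, at 0.603, 1.07 and 0.548 FPKM, was the other measured relative and was not called. For maturation 0 of the 4 were called, where 1.75% of tested genes were. Bhlhb9, below 1 FPKM in every library, was called lower for the knockdown against the maturing control in the authors' deposited table (q of 0.0283). In that comparison 4.38% of tested genes were called lower, and Tceal8 and Wbp5 had no row.

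Tceal8 lies between the pair of members that were called lower on the X chromosome. It is 28.5 kb from Bex4 and 41.7 kb from Bex1, and the 3 genes lie within 76.5 kb. Within 500 kb of the X-linked members there were 21 other genes in the table, of which 6 reached 1 FPKM. In the knockdown, the authors' deposited table called Tceal8 lower, no other of them lower and 0 higher. Over all tested genes 3.24% were called lower and 5.81% higher. On the side of Bex2, the neighbours Arxes1 and Arxes2 were present at nearly equal levels. Arxes1 stood at 4.07, 3.92 and 4.80 FPKM, and Arxes2, a similar copy whose separate level is uncertain, had a log2 ratio of FPKM + 1 of -0.04 in the knockdown. On the other side, Wbp5 and Ngfrap1 followed Bex1 and were not called. Along the chromosome, the genes called lower (Bex4, Tceal8, Bex1) were thus next to each other among measured genes, with uncalled measured genes on both sides. Tceal5, which lies between Tceal8 and Bex1, was listed at 0 in all 3 libraries. The order is a description of these libraries, and members chosen for their decrease take part in it.

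**Figure D3:**
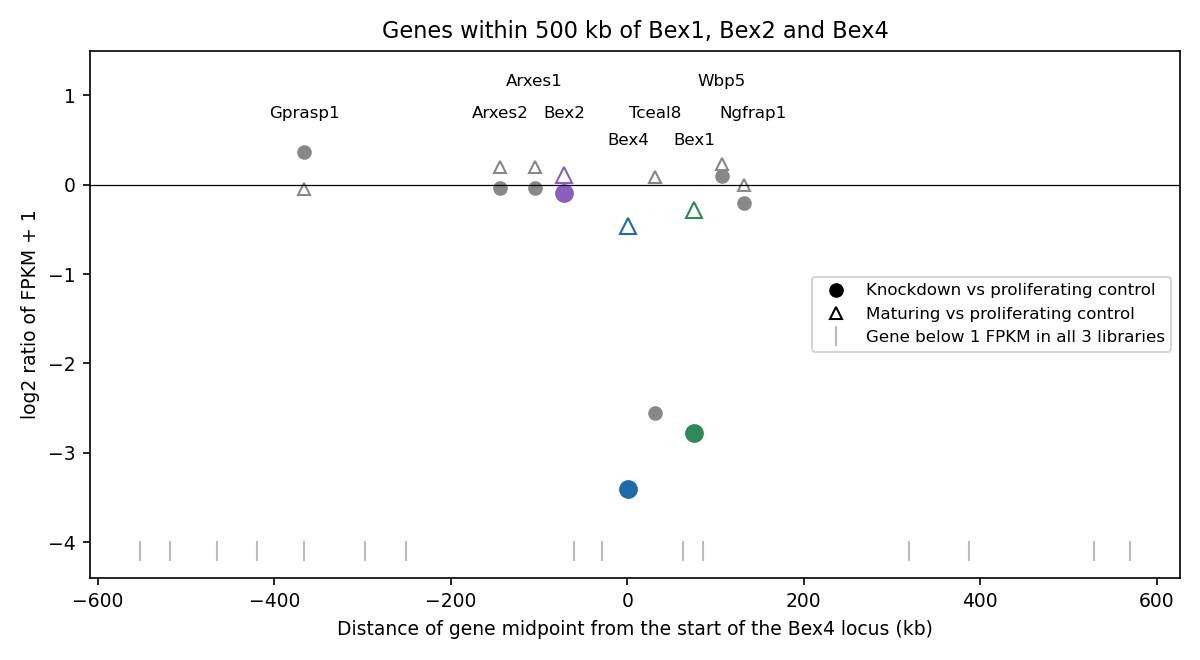
Log2 ratio of FPKM + 1 (vertical axis) against the distance of each gene's midpoint from the start of the Bex4 locus in kb (horizontal axis) for genes within 500 kb of Bex1, Bex2 and Bex4. Filled circles are the knockdown and open triangles maturation, both against the proliferating control, members are coloured and ticks mark genes below 1 FPKM in all 3 libraries. Bex4, Tceal8 and Bex1 lie at -3.40, -2.55 and -2.78 for the knockdown, and the other measured genes lie between -0.20 and 0.37.

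On chromosome 16, no measured neighbour of Bex6 was called lower in the knockdown. Of 24 other genes within 500 kb, 18 reached 1 FPKM, and in the knockdown 1 of these was higher and 0 were lower by the calls of the authors' deposited table. Over all tested genes 5.81% were called higher and 3.24% lower, and nothing is read from these small counts. The called gene was Osta, a subunit of a steroid and bile acid transporter, at 0.263, 2.34 and 0.153 FPKM. Osta reached 1 FPKM only in the knockdown, so it was counted through its higher value. The median log2 ratio of FPKM + 1 of the 18 was 0.09. The transferrin receptor gene Tfrc, the highest of them, stood at 34.0, 18.0 and 44.3 FPKM and was not called. For maturation 0 of the 18 were called, where 1.75% of tested genes were.

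The lists of pathways in which Bex proteins are known to act were read against a background of 9.05% of tested genes called in either direction for the knockdown. Of 17 genes of the p75 receptor and its partners, 8 reached 1 FPKM, and in the knockdown 1 was higher and 0 were lower by the calls of the authors' deposited table, where 5.81% of tested genes were called higher. The called gene was Maged1, an adaptor that binds the same receptor, at 0.966, 4.90 and 0.840 FPKM. Maged1 reached 1 FPKM only in the knockdown, so it was counted through its higher value, and nothing is read from this count. The receptor gene Ngfr itself did not reach 1 FPKM in any library. Sqstm1, the gene of an adaptor protein also known as p62, stood at 27.0, 34.1 and 34.6 FPKM and was not called. The median log2 ratio of FPKM + 1 over the 8 was 0.01. Irak1, 1 of these 8, could not be called for the knockdown against the proliferating control or for maturation. Its test is marked as failed in both.

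Of 11 genes of the Lmo2 complex, 10 were measured. In the knockdown 1 of these was higher and 0 were lower by the calls of the authors' deposited table, and the median was -0.14. The called gene was Gata2, which the study's title names, at 54.9, 129.4 and 29.6 FPKM. Lmo2, named after its value was seen, stood at 36.2, 27.9 and 24.5 FPKM. Its binding partner Ldb1 stood at 30.8, 14.8 and 39.3 FPKM. Neither was called for the knockdown against the proliferating control in the authors' deposited table, where Ldb1 had a q of 0.248. All 8 genes of tubulin acetylation were measured, and 0 were called, with a median of -0.11. The deacetylase gene Sirt2 stood at 16.5, 11.3 and 18.8 FPKM, a value also given after it was seen, and Tuba1b, the highest tubulin, at 527, 493 and 445 FPKM. Alpha-tubulin copies are alike, which leaves the level of each uncertain. The authors' deposited table called no gene of these 3 pathways for maturation, where 1.75% of tested genes were called. For the knockdown against the maturing control it called Maged1, Gata2 and Ripk2 (q of 0.00426), a kinase gene of the p75 list, higher, and Ldb1 (q of 0.0345) lower. Over all tested genes of that comparison, 7.22% were called higher and 4.38% lower. Some genes of these lists had no row in it and were not compared, among them Tal1, Traf6, Sqstm1 and Tuba1b.

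Markers of other cells were read beside the Bex values. Neural markers, chosen because brain is where the family is best known, matched a row for 11 of 12 entries, and 2 of these reached 1 FPKM. They were Tubb3, at 224, 202 and 206 FPKM, and Stmn2, at 3.85, 5.14 and 4.22 FPKM, and neither was called. Snap25, Rbfox3 and Neurod1 were below 0.01 FPKM in every library. Mast cell markers moved opposite to Bex4, Bex6 and Bex1 in the knockdown, where 6 of 8 were higher and 0 lower by the authors' deposited table, against 5.81% of tested genes called higher. For maturation 3 of the 8 were lower by the same calls and 0 higher, against 1.17% of tested genes called lower. Their summed level was 54.2, 449.8 and 33.7 FPKM, and none of the 8 was at 0 in any library. Of 5 megakaryocyte markers 3 were called higher in the knockdown, with a summed level of 3.13, 9.93 and 2.98 FPKM, and Ppbp was at 0 in every library. The part of these markers in the Bex values was not tested. Erythroid markers had a median log2 ratio of FPKM + 1 of -0.65 over 8 genes in the knockdown, with none called, and of 0.50 in maturation, where the authors' deposited table called 1 higher. Their summed levels were 258, 249 and 304 FPKM, and their part in the Bex values was not tested either. Summed markers of macrophages and granulocytes, of lymphocytes and of fibroblasts and endothelium stayed at or below 1.48 FPKM in every library. Among them the fibroblast marker Pdgfra, at 0.00886, 0.207 and 0.00460 FPKM, was called higher in the knockdown in the authors' deposited table (q of 2.73e-07), and the others were not called in that comparison.

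The genes whose pattern was most like that of a Bex gene were found by distance. For each gene the log2 ratios of FPKM + 1 of the knockdown and of the maturing control, both to the proliferating control, were taken over the 3 libraries, and the closest of 5113 named genes at 5 FPKM or more were kept. For Bex1 these were Add2, which encodes beta-adducin of the red cell membrane skeleton, Slc38a1, a glutamine transporter gene, and Sema4d, at distances of 0.32, 0.32 and 0.36 on the log2 scale. For Bex4 they were Fabp5, a fatty acid binding protein gene, Cnn3 and Ptgr1, at distances of 0.17, 0.26 and 0.28, and for Bex6 the same 3 genes came closest. Fabp5 stood at 8.79, 0 and 6.75 FPKM, far below the level of Bex4. Sema4d, Cnn3 and Ptgr1 were also near 0 in the knockdown, at 0.00610, 0.0178 and 0.00803 FPKM. Their ratios there, like that of Fabp5, depend largely on the added 1 FPKM. For the mean pattern of the members at 1 FPKM or more they were Slc38a1, Add2 and the carbonic anhydrase gene Car1, at distances of 0.07, 0.26 and 0.34. That mean includes Bex2, at a log2 ratio of FPKM + 1 of -0.09 in the knockdown, so it is the pattern of no single member. With 0.1 FPKM added in place of 1, the 3 closest genes to Bex4 and to Bex6 became Add2, Slc38a1 and Gsta4, and 0 of the former 3 remained. Gsta4, a glutathione transferase gene, stood at 40.6, 5.81 and 25.1 FPKM. For Bex1, 2 of 3 remained. All of these genes were taken for their ratios, so the likeness is a description.

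**Figure D4:**
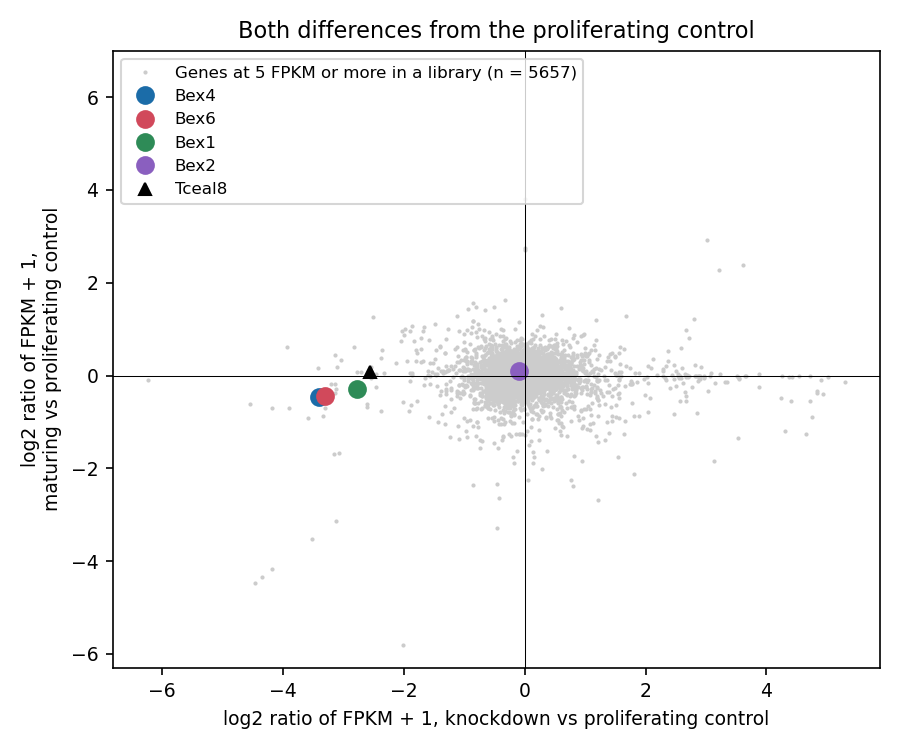
Log2 ratio of FPKM + 1 for the knockdown (horizontal axis) and for the maturing control (vertical axis), both against the proliferating control, for 5657 genes at 5 FPKM or more in a library (grey), the 4 Bex members and Tceal8. Bex4, Bex6 and Bex1 lie far to the left, slightly below 0 on the vertical axis, Tceal8 lies just above 0 and Bex2, which is below 5 FPKM, lies at the centre.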

How the data were processed

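RNA was sequenced from 1 sample per group, and 3 of 4 groups were used. The submitters' processing notes name FastQC 0.10.1, Cufflinks 2.0.2 with Cuffdiff, and mm9 as the build. Which aligner and annotation were used is not given in the sources used here. Per the file headers, the authors deposited 1 table of pairwise comparisons that gives each gene 2 library values, their log2 ratio, and a statistic with its p-value and q-value. The authors' deposited values were read as FPKM because Cuffdiff writes that unit. The third comparison covers 19067 of 23234 genes. A library was matched to a sample by its title, for the knockdown by its target and number together.

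No test was run, since each group had 1 library. Calls are the authors', at a q of at most 0.05. The SE is the deposited log2 ratio divided by the deposited statistic. Sizes are log2 ratios of FPKM + 1. A gene was measured at 1 FPKM in at least 1 library. Locus starts in the table count from 0 (lengths then equalled those of RefSeq for 7152 of 20599 genes, against 452 otherwise), so 1 was added. RefSeq names Bex4 as a synonym of Bex1, and Bex1 of Bex2. The deposited locus lengths of Bex1, Bex2 and Bex6 equalled RefSeq's, and that of Bex4 was 1393 against 1448 bases. RefSeq and GENCODE sequences are of GRCm38, and no coordinate was moved between builds.

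The members and lists were chosen with earlier results of these data known. Named genes are the members, Setd8 and Gata2, called list members at 1 FPKM or more, the highest other list members (at most 4) and the 3 closest patterns per member, with predicted genes and short RNAs left out. Some list members that this rule takes are not reported here. Alternatives were pseudocounts, filters, scalings, a stricter q, other windows and, added after seeing the data, runs of 50 bases. The distance and sequence steps were tested on simulated data. Python 3.11.15, numpy 2.4.6, pandas 2.3.3, biopython 1.88 and matplotlib 3.10.9 were used.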

Additional observations from a re-analysis of the deposited data

How the results depend on the processing

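The number of Bex members called lower (3, 0 and 3 in the 3 comparisons) was the same with a q under 0.01, with a filter at 5 FPKM, which drops Bex2, and with no filter. The number at a log2 ratio of -1 or below (also 3, 0 and 3) was the same under pseudocounts of 0.1, 5 and none and under 3 other scalings, whose shift common to all genes was at most 0.09 on the log2 scale. Single members moved by more: Bex1 in the knockdown went from -2.78 to -3.14 under TPM, and from -2.50 to -2.84 against the maturing control. TPM rescaled all values while 1 was still added, so the added 1 weighed less against Bex1. Of 72 values of single members under these settings, 3 moved by more than the SE of the authors' model, all for Bex1. They were -1.80 with a pseudocount of 5 and -3.30 with none for the knockdown against the proliferating control, and -1.57 with a pseudocount of 5 against the maturing control. Among 88 values of lists and neighbours 3 moved: the 1 call of the p75 list and the 1 call beside Bex6 are lost at 5 FPKM, where Maged1 and Osta are not counted, and the second also within 250 kb. With runs of 50 bases the shared part was 21.1% for Bex1, 49.7% for Bex4, 22.2% for Bex2 and 0% for Bex6. The planned identity between proteins was not run, as no protein table was used here. No paired analysis was possible because each group had 1 library. Depth is known only relative to the proliferating control, so no counting interval was given, and values near 0 such as that of Tceal8 in the knockdown are the least certain.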
